A study of Mus musculus with 8 samples.

Results

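The first 6 h of c-Src induction were examined by setting the 2 arrays taken after 6 h of doxycycline against the 2 arrays taken at 0 h. A probe entered the comparison if it was not a control and was well above background on both arrays of at least 1 of the 2 times, and 27837 of 55681 probes met this rule. They stood for 20398 genes, each read by its brightest probe, of which 12838 have gene symbols and 7560 carry the names of clones or loci. The cells were mouse embryonic fibroblasts (MEF) of the genotype Csk-/-, transfected with pBKT2-c-Src. Every group, the 0 h group included, had the Csk deletion and the vector. The groups differed in how long c-Src had been induced with 1 µg/ml doxycycline, for 0, 6, 24 or 72 h, with 2 arrays each and 8 in all. The strain and age of the embryos, the origin of the c-Src sequence and whether the cells were a clone or a pool are not given in the sources used here. The 2 arrays of a time are named duplicates but not separate cultures, so a p-value here rests on the spread between 2 arrays of a time, and that spread may be technical only. Time of induction, exposure to doxycycline, time in culture and the row on the slide ran together, and their effects cannot be told apart.

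c-Src is a membrane-anchored tyrosine kinase, and Csk is the kinase that phosphorylates its tail and holds it in the inactive form. Active Src couples growth factor receptors and integrins to the Ras and ERK pathway, to PI3 kinase and to STAT3. The ERK pathway is known for switching on immediate early genes, which encode short-lived transcription factors such as Fos and the Egr proteins. Those factors act on a later set of genes, and among both sets are phosphatases and adaptors that damp the same pathway.

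Levels are given as log2 signal relative to the 75th percentile of the array, and a difference is the 6 h mean minus the 0 h mean on that scale. Called genes are those with an adjusted p under 0.05 by limma. Between 50.2% and 54.7% of the 59305 spots that are not controls were well above background on these 4 arrays, no spot was saturated, and duplicates correlated across genes with r = 0.9967 at 0 h and r = 0.9971 at 6 h. Of 12 fibroblast markers, 10 were well above background on each of the 4 arrays, though not the same 10, with a summed scaled signal of 663.8 to 738.3. Thy1 was so on none of the 4 and Prrx1 on 1 of the 0 h arrays only. Lum was so on 1 of the 0 h arrays and on both 6 h arrays. Of 12 epithelial markers 9 were also well above background on each of the 4 arrays, and Epcam, Cdh1 and Cldn4 were not. The summed signal of the 12 was 8.70 to 9.84. Of 10 macrophage markers, 6 were never tested, Ptprc, Cd68 and Adgre1 among them. The 1571 probes well above background at 1 time only had a median level of -4.39 and a median absolute difference of 0.43. The 4159 probes just outside the rule had a median level of -5.12 and a median absolute difference of 0.57.

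Src was read by 1 probe of 60 bases, shown here because it decides what the Src value means. By the array's annotation it lies at chr2:157293336-157294267 (mm9, plus strand). The 60 bases span 932 genomic bases and so cross an intron, which places the probe in spliced exon sequence. The endogenous transcript and the vector's transcript cannot be told apart by it.
Src probe: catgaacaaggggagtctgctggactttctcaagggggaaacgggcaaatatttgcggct
Src stood at -1.35 and -1.19 on the 0 h arrays and at 3.46 and 3.49 on the 6 h arrays. The times did not overlap, and the difference was 4.75 ± 0.06 (SE, n = 2 per time; adjusted p = 1.82e-05 by limma), or 26.9-fold. Csk itself gave no signal well above background at either time, at -7.29 and -6.98 on the 0 h arrays.

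Phosphatases and a ubiquitin ligase that act around Src were higher. Of 15 genes reported here from the Src family, with Fer, Fes and their regulators, 4 were called higher, against 9.84% of all genes tested that were called higher and 16.6% called in either direction, and the median difference was 0.19 against 0.004 over all genes. Ptpre, a receptor-type phosphatase that can remove the inhibitory phosphate of Src, was not well above background at 0 h (-5.40 and -5.46) and rose to -3.82 and -3.93 at 6 h, at least 1.93-fold (adjusted p = 0.00023). An at-least fold sets the 6 h mean against the lowest signal well above background on the 0 h arrays, or the gene's own signal there where higher. Cbl, a ubiquitin ligase for activated tyrosine kinases, rose by 0.47 ± 0.08. Ptpn12 and Ptpn11, a pair of cytoplasmic tyrosine phosphatases, rose by 0.39 and 0.24, with adjusted p up to 0.126 and 0.235 in other settings. Without single arrays of 0 h or 6 h 1 or 2 rises in the list were called. The call of Cbl ended without either 0 h array or the second 6 h array, with adjusted p up to 0.0736. Fer, a cytoplasmic tyrosine kinase outside the family, was at 1.23 and 1.34 at 0 h and at 1.45 and 1.48 at 6 h. Its difference of 0.19 ± 0.09 did not pass (adjusted p = 0.239), and it was 0.78 at 24 h and 0.79 at 72 h against 0 h.

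Over all genes, 2008 were called higher at 6 h, which is 9.84% of those tested, and 1384 were called lower, which is 6.78%. Large changes were mostly rises. At least 2-fold differences were called for 173 genes higher (0.848% of those tested) and 43 lower (0.211%), and at least 4-fold for 41 higher and 3 lower. Differences under 1.25-fold made up 669 of the calls higher and 475 of the calls lower. For 63.3% of genes both 6 h arrays lay on the same side of both 0 h arrays. The calls depend on the spread estimated from few arrays. Without the first or second 0 h array, 877 and 923 genes were called higher and 535 and 401 lower. Without the first or second 6 h array the counts were 910 and 693 higher and 407 and 340 lower, and without either 72 h array they were 1368 and 879. With each array centred on its median, 1615 were called higher and 489 lower, and with quantile normalization 1679 and 1878, so the share of calls that were rises was 76.8% and 47.2% against 59.2%. No gene called in the main comparison was called the opposite way in any of the 19 other settings.

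**Figure D1:**
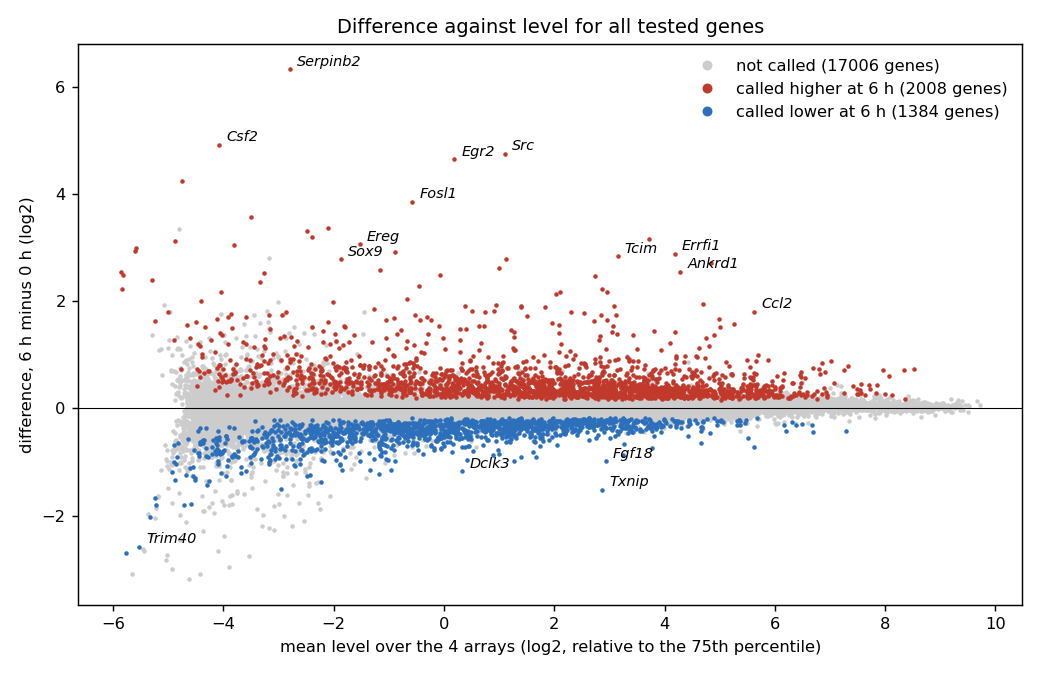
Difference between 6 h and 0 h (log2, vertical axis) against the mean level over the 4 arrays (log2 relative to the 75th percentile, horizontal axis) for 20398 tested genes, each a point, coloured by call. The largest called rises, such as Src at 4.75, Egr2 at 4.64 and Fosl1 at 3.85, reach further from 0 than called falls of brighter genes such as Txnip at -1.52.

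Transcription factors of the early response were mostly higher. Of 13 tested AP-1 factors, the leucine zipper proteins that pair as Fos, Jun, Maf and Atf dimers, 12 were called higher and none lower, with a median difference of 0.61. Fos stood at -2.65 and -2.25 at 0 h and at 0.07 and 0.19 at 6 h (2.59 ± 0.13, adjusted p = 0.00046). Fosl1, the Fos relative that persists in transformed cells, was at -2.65 and -2.35 and then at 1.34 and 1.36 (3.85 ± 0.10). Both genes had 6 h arrays far above their 0 h arrays. Junb rose by 1.71, Atf3 by 1.74, Maff by 1.78 and Jun by 1.28, whereas Fosb and Fosl2 rose by 0.39 and 0.37. The call of Fosb ended without the second 0 h array, either 6 h array or either 72 h array (adjusted p up to 0.144) and under other settings (up to 0.192), and that of Fosl2 without the first 0 h or second 6 h array (up to 0.0672). Without any one of the 0 h and 6 h arrays 9 or 10 AP-1 factors were called. Batf3 had a difference of 0.18 and did not pass.

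Of 6 tested Egr and Nr4a factors and their corepressors, 5 were called higher, with a median of 1.24. Egr2, a zinc finger factor of the early growth response family, went from -2.24 and -2.03 to 2.50 and 2.52 (4.64 ± 0.08, adjusted p = 4.33e-05), a 25.0-fold rise. Egr1 was at 1.86 and 2.41 at 0 h and at 5.29 on both 6 h arrays, a difference of 3.16 ± 0.17. Nab2 and Nab1, which bind Egr proteins and repress their activity, rose by 0.82 and 0.51. Nr4a1, an orphan nuclear receptor, rose by 1.65, whereas its relative Nr4a2 had a difference of -0.29 and did not pass (adjusted p = 0.342). Egr3, Egr4 and Nr4a3 were not well above background on the arrays of either time.

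Among 24 other early response genes 16 were called higher and 1 lower, with a median of 0.66. The PEA3 group of Ets factors, which ERK activates in fibroblast growth factor signalling, was represented by Etv5 and Etv4. Etv5 stood at 1.49 and 1.52 and then at 3.93 and 4.01 (2.47 ± 0.05, adjusted p = 4.33e-05), and Etv4 rose by 2.14 ± 0.10. Arc, a synaptic immediate early gene with serum response elements, rose by 2.03, Bhlhe40 by 1.73, Ier2 by 1.54 and Trib1 by 1.53. Srf itself, the serum response factor, went from 2.71 and 2.75 to 4.11 on both arrays (1.38 ± 0.05). Myc, the growth regulator, went from 0.52 and 0.59 to 1.93 and 2.05 (1.43 ± 0.07). Pim1, a serine kinase gene of the same list, moved the other way and fell by 0.45 ± 0.06 (adjusted p = 0.00959). That call ended without the second 0 h or first 6 h array, with adjusted p up to 0.0542.

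Several transcription regulators outside these families were among the largest rises. Sox9, a regulator of cartilage and of epithelial progenitors, stood at -3.30 and -3.21 at 0 h and at -0.54 and -0.42 at 6 h (2.78 ± 0.08, adjusted p = 7.65e-05). Tcim, a small regulator of transcription and Wnt signalling, went from 1.67 and 1.78 to 4.52 and 4.62 (2.84 ± 0.07), and its other probe gave 2.97. Ankrd1, a nuclear ankyrin protein of stretched muscle and a known YAP target, went from 3.02 and 3.00 to 5.52 and 5.59 (2.55 ± 0.08). For each of these genes the lowest 6 h array lay above the highest 0 h array.

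Of 12 tested Krüppel-like factors 6 were called higher and 2 lower, with a median of 0.41. Klf4 was at 0.72 on both 0 h arrays and at 1.80 on both 6 h arrays (1.09 ± 0.04, adjusted p = 0.000217). Klf6 rose by 0.80, Klf5 by 0.62 and Klf10 by 0.58, and Klf11 and Klf2 fell by 0.49 and 0.27, with adjusted p up to 0.0972 and 0.276 in other settings. Without any one of the 0 h and 6 h arrays 4 members were called higher, and no more than 1 was called lower.

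**Figure D2:**
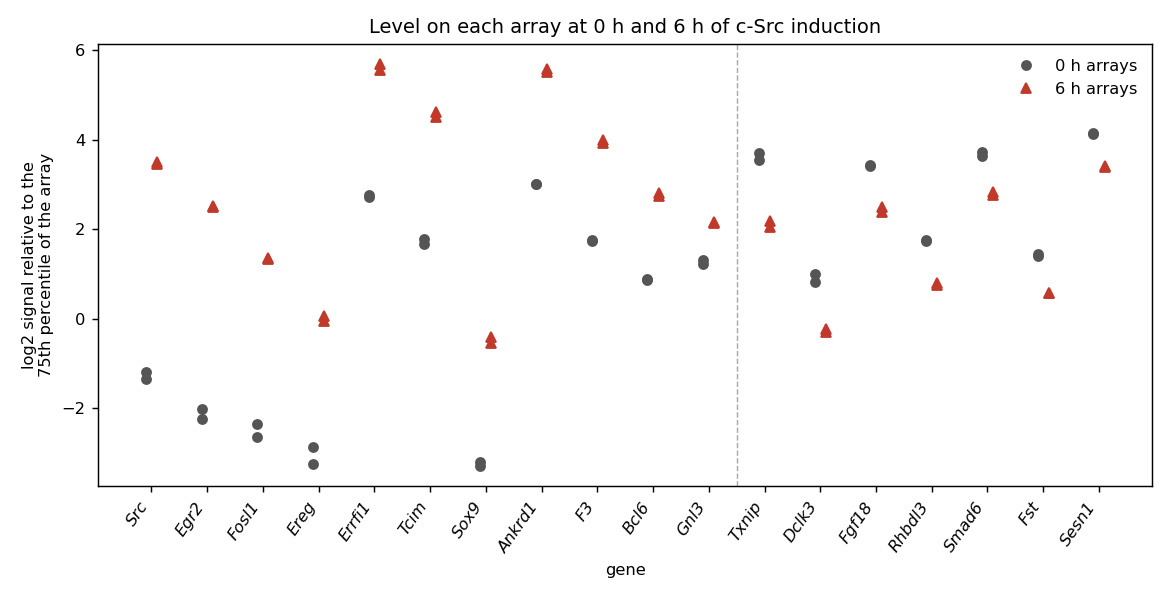
Log2 level relative to the 75th percentile of the array (vertical axis) on each 0 h array (circles) and each 6 h array (triangles) for 18 genes (horizontal axis), with rises left of the dashed line and falls right of it. The duplicates lie close together, and for each gene the 6 h arrays lie wholly above or wholly below the 0 h arrays.

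Inhibitors of the ERK pathway rose beside the early factors. Of 17 tested feedback inhibitors 14 were called higher and none lower, with a median of 1.06, and 12 to 14 were called higher when an array of 0 h or 6 h was left out. Errfi1, which binds the kinase domain of the EGF receptor and blocks it, stood at 2.72 and 2.76 at 0 h and at 5.56 and 5.69 at 6 h. The difference was 2.89 ± 0.07 (adjusted p = 5.49e-05), or 7.39-fold, the largest in the list. Dusp4, a nuclear phosphatase of ERK and JNK, went from -0.26 and -0.27 to 2.48 and 2.55 (2.78 ± 0.05). Dusp6, the cytoplasmic ERK phosphatase, went from 3.53 and 3.44 to 6.14 and 6.26 (2.72 ± 0.07). In these 3 genes the times were separated by more than 2.5 log2 units while duplicates differed by 0.14 at most. Spry4 rose by 1.98, Dusp2 by 1.51, Dusp1 by 1.48 and Dusp5 by 1.33. Dusp8 had a difference of 1.80 ± 0.46 with unequal 0 h arrays (-2.75 and -1.95) and did not pass (adjusted p = 0.0521). Spry2 and Dusp10 did not pass either, with differences of 0.61 and 0.43.

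Inhibitors of cytokine and NF-kB signalling moved less. Of 15 tested, 5 were called higher and none lower (33.3% called, against 16.6% of all genes), with a median of 0.25. Tnfaip3, the ubiquitin-editing enzyme A20 that limits NF-kB, went from 1.34 and 1.28 to 2.84 and 2.89 (1.56 ± 0.08, adjusted p = 0.000409). Nfkbiz rose by 0.91 and Nfkbie by 0.67. Cish and Nfkbia rose by 0.44 and 0.36, but the call of Cish ended without any one of the 0 h and 6 h arrays (adjusted p up to 0.0684). That of Nfkbia ended without the first 0 h array, either 6 h array or either 72 h array (adjusted p up to 0.124). Without the first 0 h array, the first 6 h array or the second 6 h array 3 members were called. Of 12 factors of mRNA decay, 4 were called higher and none lower (33.3% called, against 16.6% of all genes), with a median of 0.16. Zfp36, which destabilises mRNAs with AU-rich elements, went from -3.55 and -3.63 to -2.30 and -2.16 (1.36 ± 0.24, adjusted p = 0.0179), and that call ended without any one of the 0 h and 6 h arrays, with adjusted p up to 0.0957. Zc3h12a, an endonuclease of cytokine mRNAs, rose by 0.60, Zfp36l2 by 0.46 and Btg1 by 0.42, and without the second 6 h array 1 member was called.

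Secreted signals split by family. Of 7 tested ligands of the EGF receptor family 3 were called higher and 2 lower, with a median of 0.30. Ereg, epiregulin, stood at -3.25 and -2.87 at 0 h and at -0.04 and 0.05 at 6 h (3.06 ± 0.12, adjusted p = 0.000217), an 8.35-fold rise. Hbegf, the heparin-binding ligand, went from 0.93 and 1.1 to 3.09 and 3.27 (2.17 ± 0.10). Areg, amphiregulin, was not well above background at 0 h and stood at -4.66 and -4.49 at 6 h, at least 1.19-fold. These 3 calls held when any one array was left out, and that of Areg ended with a common floor on the signals. Nrg2 fell by 0.67 ± 0.15 and Egf by 0.44 ± 0.10, and no member was called lower when any one of the 0 h, 6 h and 72 h arrays was left out. Among the receptors, Egfr rose by 0.33 ± 0.05, a call that ended without either 0 h array or the second 6 h array (adjusted p up to 0.0747). Erbb2 fell by 0.26 ± 0.06, a call that ended without any one of the 8 arrays (adjusted p up to 0.169).

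Of 27 other growth factors 13 were called higher and 3 lower, with a median of 0.25. Angptl4, a secreted lipase inhibitor, went from -0.08 and -0.01 to 1.48 and 1.5 (1.54 ± 0.08). Lif rose by 1.19 and Gdnf, a neurotrophic ligand of Ret, by 1.12 ± 0.04 (adjusted p = 0.000191). Pdgfb rose by 0.85, Vegfa by 0.77 and Pdgfc by 0.58. Angpt2, a ligand of the Tie2 receptor, was not well above background at 0 h and rose at least 2.87-fold. Among the falls, Fgf18 stood at 3.43 and 3.42 at 0 h and at 2.38 and 2.50 at 6 h (-0.99 ± 0.07, adjusted p = 0.00143), and its other probe gave -1.04. Bmp4 fell by 0.71 ± 0.07 and Tgfb3 by 0.65 ± 0.09, and the call of Tgfb3 ended without the first 0 h array or either 6 h array (adjusted p up to 0.0537). Fgf9 fell by 1.04 ± 0.23, with adjusted p up to 0.168 under other settings. Without the first 0 h array 8 rises were called, and 1 or 2 members were called lower without a 0 h or 6 h array.

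Chemokines, which draw leukocytes, were mostly higher. Of 10 tested 7 were called higher and 1 lower, with a median of 1.12. Cxcl1 stood at -1.63 and -1.56 and then at 0.69 and 0.68 (2.28 ± 0.05, adjusted p = 4.35e-05). Ccl7 rose by 1.90, Ccl2 by 1.80, Cxcl5 by 1.34 and Cxcl10 by 0.90. Cxcl12, the chemokine of fibroblast stroma, moved the other way, from 7.48 and 7.54 to 7.10 and 7.07 (-0.42 ± 0.09), and that fall was not called when any one of the 0 h, 6 h and 72 h arrays was left out. Cxcl3 rose at least 2.69-fold from below background, with adjusted p up to 0.194 in other settings. Csf1r, the receptor of macrophage colony-stimulating factor, rose by 0.88 ± 0.08 by its brightest probe. Its other tested probes had differences of -0.06 and 0.80 and did not pass (adjusted p = 0.603 and 0.19). The summed signal of the 10 macrophage markers was 17.1 to 18.6 at 0 h and 18.3 to 18.4 at 6 h, with Ptprc and Adgre1 not well above background on these arrays. Cd68 stood at -5.96 and -6.22 at 0 h and at -4.71 and -4.84 at 6 h, was well above background on 1 of the 6 h arrays and was not tested, and its part in the results was not tested.

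Surface receptors known from invading cells also rose. Of 19 tested 13 were called higher and none lower, with a median of 0.49. F3, tissue factor, which starts blood clotting, stood at 1.76 and 1.73 at 0 h and at 3.93 and 4.0 at 6 h (2.22 ± 0.05, adjusted p = 4.35e-05), or 4.66-fold. Vcam1, an adhesion molecule for integrins, went from 1.84 and 1.91 to 4.05 and 4.02 (2.17 ± 0.07). The receptors Tnfrsf12a, Plaur and Epha2, for TWEAK, urokinase and ephrins, rose by 1.67, 1.43 and 1.09. Cd44, the hyaluronan receptor, rose by 0.72, Itga5 by 0.55 and Itgb3 by 0.48. The calls of Itga5 and Itgb3 ended without the first 0 h or second 6 h array, with adjusted p up to 0.0775 and 0.0633. Without the second 6 h array 8 members were called. Of 26 tested receptor tyrosine kinases 3 were called higher (Epha4, Axl and Egfr) and 4 lower (Tyro3, Fgfr3, Erbb2 and Ephb4), with a median of -0.09. A second Fgfr3 probe had a difference of -0.14 and did not pass (adjusted p = 0.609). Over all genes 9.84% were called higher and 6.78% lower. Against 16.6% of all genes, 26.9% of these receptor kinases were called in either direction. Their largest called difference was 0.76 for Epha4, and without the first 0 h array none was called lower. Without each other array of 0 h or 6 h 1 member was called lower, and 1 or 2 were called higher without any of the 4. The median was 0.02 without the first 0 h array.

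Acta1, the actin of skeletal muscle and a classic serum response factor target, went from -0.86 and -0.87 to 0.62 and 0.73 (1.54 ± 0.06, adjusted p = 0.000191). Of 9 skeletal muscle markers it was the only 1 of the 3 tested that was called. The summed signal of the 9 markers was 1.22 to 1.24 at 0 h and 2.18 to 2.38 at 6 h, and Myod1, Myog, Ckm and Mylpf were not well above background.

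Genes of ribosome assembly shifted together by small steps. Of 35 tested 26 were called higher and none lower, and the median difference was 0.33. Gnl3, nucleostemin, a nucleolar GTPase, stood at 1.31 and 1.22 at 0 h and at 2.14 and 2.16 at 6 h (0.89 ± 0.05, adjusted p = 0.000824), or 1.85-fold. Ddx21, a nucleolar helicase, went from 1.81 and 1.89 to 2.64 and 2.67 (0.80 ± 0.05). In both genes the 6 h arrays lay above the 0 h arrays by over 0.7. Rrs1, Rrp12 and Rrp9, which process precursors of ribosomal RNA, rose by 0.76, 0.72 and 0.70, and Nolc1 by 0.64. The call of Rrp12 ended without either 0 h array or the first 6 h array, with adjusted p up to 0.0818. Fbl, Pes1 and Ncl did not pass, with differences of 0.18 to 0.23. The median of the list was above 0 in each setting, but the count of calls moved: 12 were called without the first 0 h array, 13 without the second, 14 without the first 6 h array and 13 without the second.

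Of 23 genes of polyamine and nucleotide synthesis, which supply growth, 7 were called higher and none lower, with a median of 0.13. The share called was 30.4%, against 16.6% of all genes. Srm, spermidine synthase, went from 3.90 and 3.89 to 4.4 and 4.41 (0.51 ± 0.06), and Sat1, which acetylates polyamines for breakdown, rose by 0.52. Hprt, a purine salvage enzyme, rose by 0.39 and Atic by 0.36. Cad, Ctps and Mthfd2 did not pass, with differences of -0.24, 0.18 and 0.22. Without the first 0 h array or the second 6 h array 2 members were called, and without the other arrays of these times 4 and 3.

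**Figure D3:**
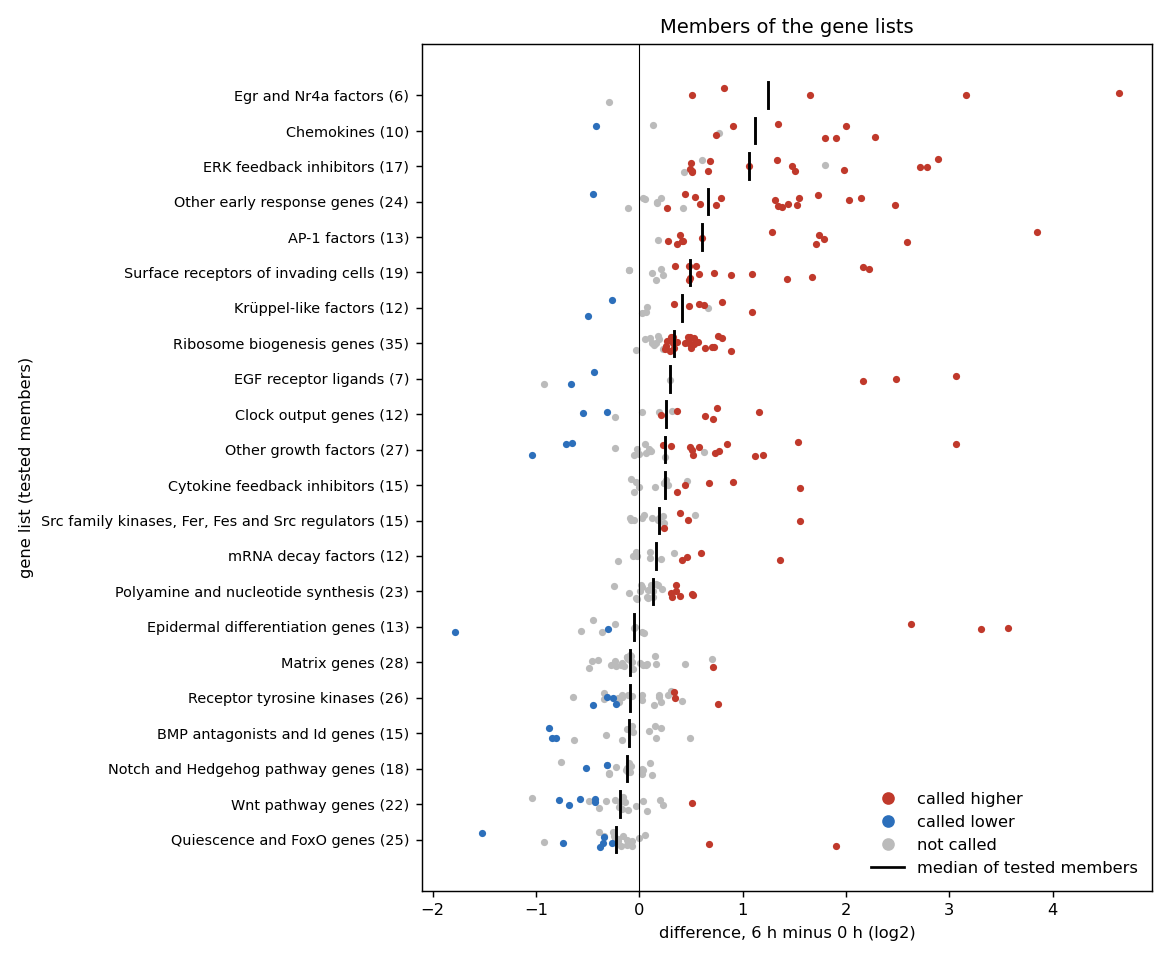
Difference between 6 h and 0 h (log2, horizontal axis) of each tested member (points, coloured by call) of 22 gene lists (vertical axis, number tested in brackets), ordered by the median of the tested members (black bar). Medians run from -0.23 for quiescence and FoxO genes to 1.24 for Egr and Nr4a factors.

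Among genes that mark resting cells, Txnip and Sesn1 fell most. Of 25 tested genes of quiescence and FoxO programs 6 were called lower and 2 higher (32% called, against 16.6% of all genes). Their median was -0.23. Txnip, an arrestin-like protein that restrains glucose uptake, stood at 3.71 and 3.56 at 0 h and at 2.17 and 2.05 at 6 h. The fall of 1.52 ± 0.15 (adjusted p = 0.0043) was the largest among called genes well above background on the 4 arrays that have a gene symbol. A second Txnip probe had a difference of -1.04 and did not pass (adjusted p = 0.126). Sesn1, a sestrin that inhibits mTORC1, went from 4.13 and 4.14 to 3.40 on both arrays (-0.73 ± 0.07, adjusted p = 0.00348). Ypel3, Ccng2 and Foxo1 fell by 0.38, 0.36 and 0.34, and each of these 3 calls ended without the second 0 h or second 6 h array, with adjusted p up to 0.0829, 0.0639 and 0.066. Bcl6, a repressor listed among FoxO targets, moved the other way, from 0.87 and 0.88 to 2.74 and 2.81 (1.90 ± 0.06). Without single arrays of 0 h or 6 h 2 or 3 members were called lower, and with median centring 3.

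A few genes of the BMP and Wnt pathways fell, and most tested members were not called. Of 15 tested BMP antagonists and Id genes 3 were called lower and none higher, with a median of -0.10. The 20% called stands beside 16.6% of all genes called in either direction and 6.78% called lower. Smad6, which blocks BMP receptor signalling and is induced by it, stood at 3.72 and 3.63 and then at 2.84 and 2.77 (-0.87 ± 0.07, adjusted p = 0.00189). Fst, follistatin, which binds activins and BMPs, went from 1.44 and 1.40 to 0.57 on both arrays (-0.85 ± 0.06), and Smad9 fell by 0.81. For Smad6 and Fst the 6 h arrays lay below the 0 h arrays by over 0.7. Fstl3, a follistatin relative outside the list, fell by 0.96 ± 0.14, with adjusted p up to 0.0777 in other settings. Id3 had a difference of -0.32 and did not pass (adjusted p = 0.077). Id1 and Id2 had differences of 0.16 and 0.21 and did not pass either.

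Of 22 tested Wnt pathway genes 5 were called lower and 1 higher, with a median of -0.19. The share called was 27.3%, against 16.6% of all genes. Fzd4, a Wnt receptor, went from 1.02 and 1.12 to 0.50 and 0.49 (-0.58 ± 0.06, adjusted p = 0.00352), and Lef1, a transcription factor of the pathway, fell by 0.43. Axin2, a Wnt target that feeds back on beta-catenin, went from -2.49 on both arrays to -3.34 and -3.20, a fall of 0.78 ± 0.16 with adjusted p up to 0.143 in other settings. Fzd1 was the member called higher, by 0.51, and that call ended without the second 0 h array or either 6 h array. Without the first or second 6 h array 3 members were called lower. Of 18 Notch and Hedgehog pathway genes 2 were called lower, Cdon by 0.51 and Notch3 by 0.31, none was called higher and the median was -0.12. The share called, 11.1%, was below the 16.6% of all genes called in either direction. A second Cdon probe had a difference of -0.14 and did not pass (adjusted p = 0.161). The call of Notch3 ended without either 0 h array, the second 6 h array or either 72 h array, with adjusted p up to 0.107.

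Matrix genes encode the main secreted products of fibroblasts. Of 28 tested, Thbs1 was the 1 called higher, none was called lower, and the median difference was -0.09. Only 3.57% were called, against 16.6% of all genes. Thbs1, thrombospondin, an early serum-induced matrix protein, went from 3.60 and 3.54 to 4.32 and 4.25 (0.72 ± 0.07, adjusted p = 0.00395). Without the second 0 h array 2 members were called higher, and without the first 0 h array or either 24 h array 1 was called lower. Dcn had unequal 0 h arrays (6.49 and 7.32), and its difference of 0.44 ± 0.25 did not pass.

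Genes of circadian output split in both directions. Of 12 tested 6 were called higher and 2 lower (66.7% called, against 16.6% of all genes), with a median of 0.26. Ciart, a repressor of the clock, stood at -3.27 and -3.34 and then at -2.07 and -2.23 (1.16 ± 0.09, adjusted p = 0.00209). Nr1d1 rose by 0.75, Nfil3 by 0.71 and Per2 by 0.64. Dbp, a clock-driven activator, went from 3.25 and 3.30 to 2.72 and 2.75 (-0.54 ± 0.07), and Tef fell by 0.31. The call of Dbp ended without the second 0 h array or either 6 h array (adjusted p up to 0.0543), and that of Tef without any one of the 4 arrays (up to 0.0908). Without any one of these arrays 4 members were called higher. Clock and Cry2 did not pass, with differences of 0.19 and -0.24.

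Some cornified envelope genes, normally expressed in skin epithelium, were among the largest rises in these fibroblasts. Of 13 tested epidermal differentiation genes 3 were called higher and 2 lower (38.5% called, against 16.6% of all genes). The median of -0.05 lay near 0. Sprr1a, a small proline-rich envelope protein, went from -0.30 and -0.33 to 2.28 and 2.35 (2.63 ± 0.05, adjusted p = 4.33e-05). Sprr2h was not well above background at 0 h and rose at least 8.69-fold, and Ivl, involucrin, rose by 3.31 ± 0.19. Lor, loricrin, another envelope gene, did not rise, with a difference of -0.45 that did not pass (adjusted p = 0.134). The keratin genes Krt14 and Krt5 had differences of -0.36 and -0.23 and did not pass, and Dsp, a desmosome gene, fell by 0.30, with adjusted p up to 0.164 in other settings. Casp14, a caspase of cornifying skin, was not well above background at 6 h and fell at least 2.80-fold, with adjusted p up to 0.301 in other settings. Without either 6 h array no member of the list was called lower. The summed signal of the 12 epithelial markers was 8.70 and 9.84 at 0 h and 8.98 and 9.04 at 6 h. Sprr2 genes are near-identical copies, and the signals of their probes are uncertain between them. Sprr2e rose by 2.92, Sprr2g by 1.25 and Sprr2k by 1.20. The brightest probe of the Sprr2a copies, at a mean of 8.68 at 0 h, had a difference of 0.04. The call of Sprr2k ended without the first 0 h array or any one of the 6 h, 24 h and 72 h arrays, with adjusted p up to 0.157, and 3 probes shared by 2 Sprr2a copies did not pass. The proliferin probe with the highest signal is annotated to both Prl2c1 and Prl2c5 and rose by 3.20 ± 0.07.

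Some genes passed from below background to above it. In all, 85 genes were well above background on both 6 h arrays and on neither 0 h array, of which 26 were called higher, and 99 showed the reverse, of which 17 were called lower. Evi2a, a membrane protein gene lying within an intron of Nf1, stood at -6.25 and -6.62 at 0 h and at -3.47 and -3.15 at 6 h, at least 2.86-fold. Mirg, a long noncoding RNA of the imprinted Dlk1 and Dio3 region, rose at least 2.33-fold. In the other direction Trim40 fell at least 1.98-fold and was called in each setting that tested it, whereas the falls of Xpnpep2 and Sult6b1, at least 2.32-fold and 2.03-fold, had adjusted p up to 0.199 and 0.126. Among brighter genes, Dclk3, a kinase of the doublecortin family, went from 1.00 and 0.82 to -0.30 and -0.22 (-1.17 ± 0.07, adjusted p = 0.000921). Rhbdl3, a rhomboid protease gene, went from 1.76 and 1.74 to 0.80 and 0.75 (-0.98 ± 0.11). Adrb3, the adrenergic receptor of fat, and Coq8a, a coenzyme Q kinase, fell by 1.05 and 1.03. Of 8 adipocyte markers 5 were tested and 1, Lpl, was called, lower by 0.29. That call ended with median centring (adjusted p up to 0.208 over all settings) and without any one of the 0 h, 6 h and 72 h arrays (up to 0.115), and a second Lpl probe, at -0.27, did not pass (adjusted p = 0.0509). The summed signal of the 8 adipocyte markers was 6.55 to 6.65 at 0 h and 5.55 to 5.61 at 6 h, and Adipoq and Plin1 were not well above background. The part of these marker shifts in the results was not tested.

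Promoters of the genes that moved together were compared letter by letter. RefSeq promoter windows of GRCm38.p6, from 250 bases before to 50 after each start, were found for 100 of the 173 genes at least 2-fold higher, 17 of the 43 at least 2-fold lower and 10755 of all tested genes. Both strands were searched, and a gene with several windows counted if any of them matched. The AP-1 motif TGANTCA was found in 24.0% of the genes at least 2-fold higher, 6.54% of all tested genes and 8.97% of all genes with a window. The CArG box of serum response factor, which is CC, then 6 of A or T, then GG, was found in 12.0% against 1.70% and 1.81%. The kappaB motif was found in 13.0% against 6.25% and 5.14%, the CRE motif TGACGTCA in 6.0% against 3.47% and 2.03%, and the Egr motif GCGNGGGCG in 12.0% against 11.6% and 6.27%. TATAAA was found in 35.0% against 9.57% and 15.7%. The Ets motif CCGGAAGT was found in none of the 100 genes, against 8.49% and 4.31%. The E-box CACGTG was found in 15.0% against 11.4% and 8.09%. A match is a run of letters, not a bound site, and the motifs can lie in the same window. Ivl, Sprr1a, Sprr2e, Sprr2h and Sprr2k, neighbours on chromosome 3, each hold both TGANTCA and TATAAA. Each was counted as a separate gene in both shares, although the Sprr2 genes are near-identical copies.

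**Figure D4:**
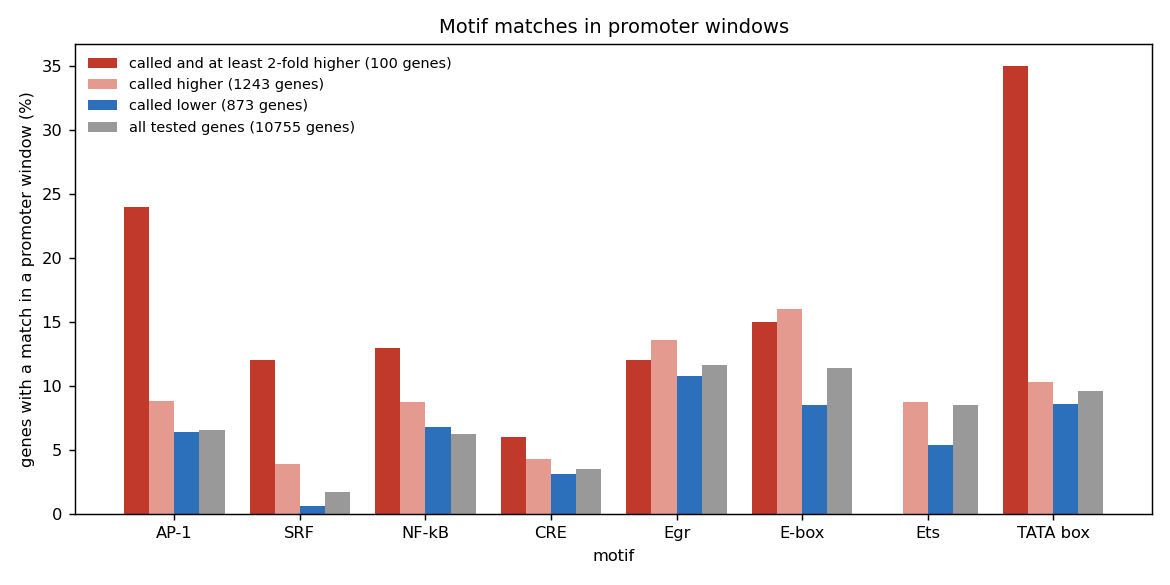
Share of genes with a match in a promoter window (percent, vertical axis, from 0) for 8 motifs named by the factor that reads them (horizontal axis), in genes at least 2-fold higher, all genes called higher, all genes called lower and all tested genes. AP-1, CArG box and TATA box matches stand at 24.0%, 12.0% and 35.0% in the genes at least 2-fold higher, against 6.54%, 1.70% and 9.57% in all tested genes.

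Stretches around such matches are shown for genes whose values are given above, chosen after the matches were seen. Bases are 5′ to 3′ on the strand of the gene, upstream of a RefSeq start, with the motif in capitals. Where another start of the gene lies further upstream the stretch is limited to 30 bases. The first 3 hold a CArG box, found in the early genes Egr2 (chr10:67537782-67537811, plus strand) and Zfp36 (chr7:28379259-28379338, minus strand) and in the actin gene Acta1 (chr8:123894806-123894885, minus strand).
Egr2: gccctgttcctcagtCCATATATGGgcagc
Zfp36: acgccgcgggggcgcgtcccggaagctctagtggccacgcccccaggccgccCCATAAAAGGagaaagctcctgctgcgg
Acta1: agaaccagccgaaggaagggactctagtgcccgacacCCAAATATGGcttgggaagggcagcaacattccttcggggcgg

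The CRE motif was found close to a start of Maff (chr15:79347477-79347506, plus strand) and of Errfi1 (chr4:150855008-150855037, plus strand), which rose by 1.78 and 2.89. Cxcl1, which rose by 2.28, holds a kappaB match that reads on both strands (chr5:90891135-90891214, plus strand).
Maff: ggcggctggggcggTGACGTCActgcatga
Errfi1: gctgcgggcgtTGACGTCAcgttgtcgctc
Cxcl1: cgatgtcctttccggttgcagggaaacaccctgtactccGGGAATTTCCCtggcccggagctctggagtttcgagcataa

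The cornified envelope genes Ivl (chr3:92573806-92573885, minus strand), Sprr1a (chr3:92485967-92486046, minus strand) and Sprr2h (chr3:92385455-92385534, plus strand) lie in 1 cluster on chromosome 3. Each holds TGANTCA in the stretch shown, and Sprr1a holds it at 146 and 116 bases before its start.
Ivl: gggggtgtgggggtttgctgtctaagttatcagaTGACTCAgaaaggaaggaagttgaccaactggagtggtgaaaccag
Sprr1a: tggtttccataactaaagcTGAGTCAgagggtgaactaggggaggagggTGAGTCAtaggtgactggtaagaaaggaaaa
Sprr2h: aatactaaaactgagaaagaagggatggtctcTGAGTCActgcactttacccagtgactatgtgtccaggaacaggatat

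Txnip, which fell, holds a carbohydrate response motif, the paired pattern read by the glucose-sensing factors Mlxip and Mlxipl, 85 bases before its start (chr3:96557837-96557916, plus strand). This motif was found in 0.084% of all tested genes, in 2 genes called higher (0.161%) and in 1 called lower (0.115%). It is too rare for its absence from the genes at least 2-fold higher to carry meaning.
Txnip: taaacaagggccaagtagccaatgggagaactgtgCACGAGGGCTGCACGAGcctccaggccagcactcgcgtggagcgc

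The levels at later times, which share the 0 h arrays with the 6 h comparison, differed from gene to gene. Fos went from 0.07 and 0.19 at 6 h to -1.95 and -1.93 at 24 h and -3.04 and -2.96 at 72 h, and was lower at 24 h than at 6 h (adjusted p = 0.000988, where 24.8% of genes were called between those times). Arc was at 0.28 and 0.42 at 6 h, at -1.0 and -1.24 at 24 h and at -1.67 and -1.76 at 72 h. The 72 h levels of Arc lay within 0.1 of its 0 h levels of -1.70 and -1.67. Thbs1 was back at 3.54 and 3.40 at 24 h and stood at 2.82 and 2.92 at 72 h.

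Other genes kept or extended their 6 h level. Fosl1 stood at 1.43 and 1.51 at 24 h and at 1.47 and 1.39 at 72 h, close to its 6 h arrays. Etv4 went from 3.05 and 3.14 at 6 h to 4.4 and 4.66 at 24 h and 4.38 and 4.43 at 72 h. Errfi1 came down in part, to 5.25 and 5.23 at 24 h and 4.42 and 4.55 at 72 h. Gnl3 stood at 2.45 and 2.40 at 24 h and at 2.47 and 2.43 at 72 h.

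Several falls went further after 6 h. Txnip was at 1.02 and 0.63 at 24 h and at -1.17 and -1.41 at 72 h. Fst was at -0.62 and -0.46 and then at -1.21 and -1.22. Axin2 was not well above background on the 24 h and 72 h arrays, so a further fall cannot be read from its levels. Dbp did not continue its fall and stood at 3.1 and 3.29 at 24 h and at 4.0 and 3.96 at 72 h, above its 0 h arrays.

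**Figure D5:**
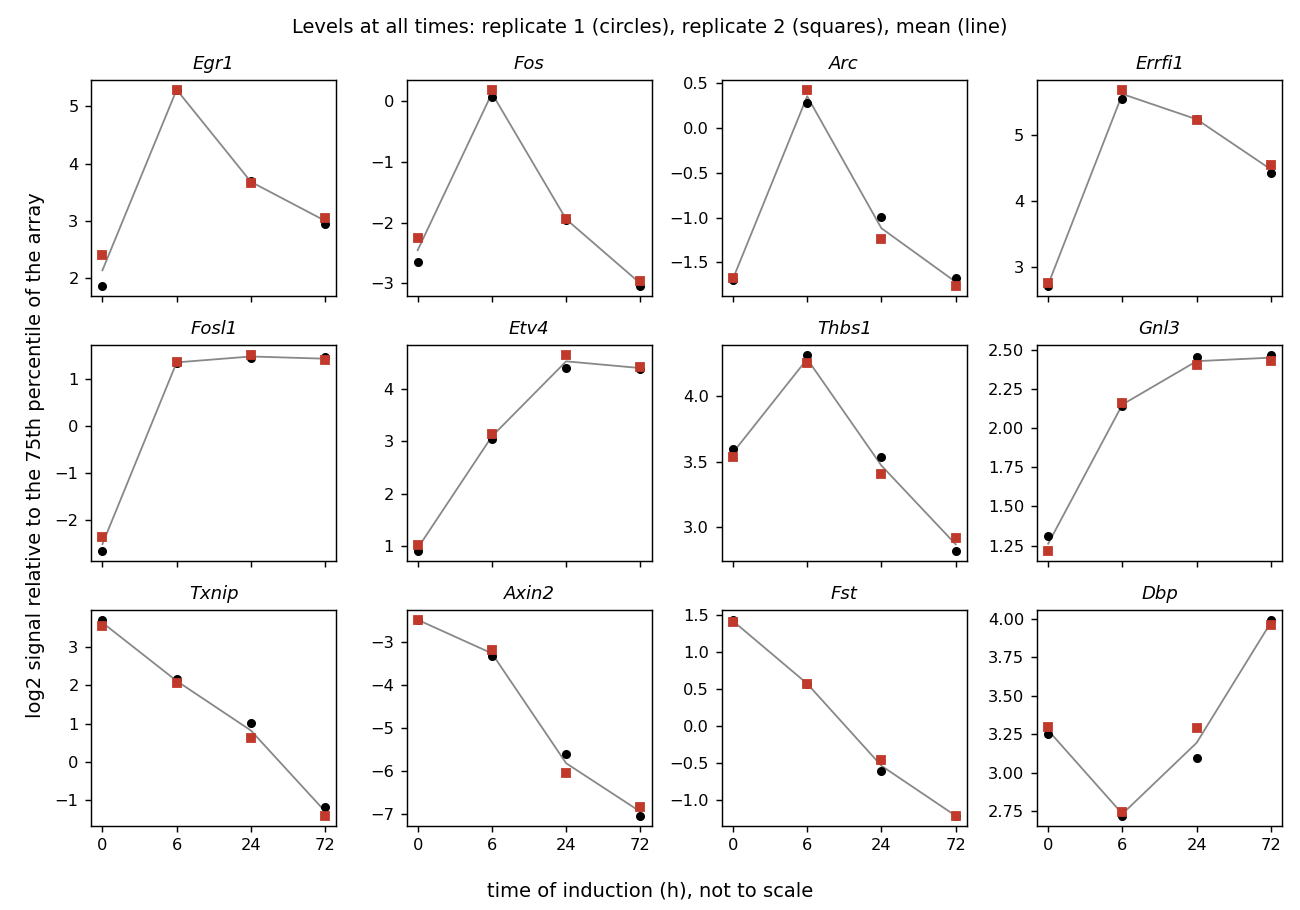
Log2 level relative to the 75th percentile of the array (vertical axes, each with its own range) at 0, 6, 24 and 72 h of induction (horizontal axis, not to scale) for 12 genes, with circles and squares for the 2 arrays of a time and a line through their means. Fos, Arc and Thbs1 peak at 6 h, Fosl1 stays near 1.4, and Txnip and Fst are lower at each later time. Axin2 was not well above background at 24 h and 72 h.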

How the data were processed

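Total RNA (500 ng) was labelled with Cy3 and hybridised to 1-colour Agilent mouse arrays, per the labels' protocols. The deposited files hold the scanner's processed signal per spot, an intensity on a linear scale, already background-corrected, with mm9 probe positions, per the file headers. The headers name Feature Extraction 10.5.1.1 and the submitters' processing notes 10.7.3.1. The authors' value table gives these intensities to within 0.497%.

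Signals were put on the log2 scale less the array's 75th percentile over 59305 spots that are not controls, outlier spots were left out, and spots of a probe were averaged. Outlier spots left 5 tested probes with fewer than 4 arrays of 0 h and 6 h. All 8 arrays were fitted with 4 time means in limma 3.58.1 (R 4.3.3; 4 residual and 1.77 prior degrees of freedom), with Benjamini-Hochberg adjustment over the 27837 probes and a threshold of 0.05. The median SE of a difference was 0.075. The number of arrays limits the precision, and exact permutation of 2 against 2 arrays cannot go below p = 0.333. Probes were named by RefSeq accession (26582), symbol (2602) or synonym (492), and 26005 kept the file's name. On simulated data for this comparison with 27837 probes, 11.6%, 48.2%, 75.8% and 91.6% of probes changed 1.25-fold, 1.5-fold, 2-fold and 4-fold were called, and 0.024% of unchanged probes. Each run changed far fewer probes than were called in the data, and its noise was independent between probes and arrays. These shares therefore need not hold for the data.

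The members and the 28 lists, 6 of them markers of cell types, were chosen with earlier results of these data known. A member of the Src family list and a further list are not reported here, and counts for that family leave the member out. The genes named are Src, Csk and Fer, the 20 largest called rises and falls well above background on the 4 arrays, the 10 largest at-least folds in each direction, and in each list up to 6 called members and up to 3 that did not pass; Fosb, Fosl2, Srf, Myc, Pim1, Cxcl12, Bmp4, Tgfb3, Itga5, Itgb3, Cd44, Tef, Vegfa, Pdgfc, Dusp5, Foxo1, Ephb4, Sprr2g, Sprr2k and Klf2 were added after their values were seen. Lor, Id1 and Id2 were also added after their values were seen. A dim probe has only a bound, given as an at-least fold. Normalization, background, floor, filter, probe choice, prior, replicate block and left-out arrays were varied. The plots used matplotlib 3.10.9 and pandas 2.3.3 under Python 3.11.15.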

Additional observations from a re-analysis of the deposited data

How the results depend on the processing

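The rise of Src kept its direction and its call in each of 19 other settings, with differences of 4.28 to 4.82. Counts moved more. Against 2008 genes higher and 1384 lower, median centring gave 489 lower, no filter on dim probes (36095 genes tested) gave 283 and 49, and a fit of only the 4 arrays of 0 h and 6 h gave 946 and 615. Leaving out single arrays gave 693 to 1942 higher and 340 to 1370 lower. With normexp background correction 102 genes were at least 2-fold higher and 2 lower, against 173 and 43. The fit without the dim-probe filter tests more genes, and the 4-array and left-out fits use fewer arrays. Median centring and normexp test the same 20398 genes on all arrays. Median centring moved the median difference over all genes from 0.004 to 0.057, and normexp added an offset of 50 to each signal. The part of these shifts in the counts was not tested. Without the dim-probe filter many list calls ended, such as all but 4 of the ribosome biogenesis genes. Medians of the list differences were positive for the ribosome genes in each setting. Samples of the 2 times share replicate numbers, but with 2 pairs, and deviations that correlate with r = 0.121, the numbers do not show that samples were paired. With the replicate block 2181 genes were called higher and 1516 lower. Precision is set by 2 arrays a time and, for dim probes, by signal over background.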
